A study of Mus musculus with 9 samples.

Results

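Interleukins are secreted proteins through which immune and stromal cells signal to each other, and most act through a receptor of a specific chain and a chain shared by several cytokines. Il1rap serves IL-1, IL-33 and IL-36, Il2rg serves the cytokines of the IL-2 family, Il6st (gp130) serves IL-6 and IL-11, and Il17ra serves several IL-17 cytokines. In bone, interleukins made by marrow and stromal cells act on osteoclast and osteoblast development.

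The genes described here are the 76 of the 22183 deposited mouse genes whose symbol begins with Il and a digit, without Il1a, Il1b, Il1rn, Il1r1, Il1r2, Il6 and Il6ra. By role, 36 are ligands, 39 are receptor chains or binding proteins, and 1, Il4i1, encodes an enzyme that oxidises amino acids. No measured value was used to choose them.

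Polyadenylated RNA of whole mouse tibiae was sequenced in 3 groups of 3 libraries, labelled as replicates 1 to 3. In Ti+I-OG, tibiae were given titanium particles as well as I-OG, a natural polymer gel for injection that carries irisin, a hormone released by muscle. Ti tibiae were given the titanium particles alone, which stand for wear debris from implants in this mouse model of aseptic loosening. The naive group was left untreated. Tibiae were compared after 5 weeks of hydrogel treatment, and the labels give no time for the Ti and naive groups. Strain, age and sex are not given in the labels. No group used here received the hydrogel without irisin or the procedure without particles, so the particles cannot be told apart from their delivery, nor irisin from its carrier. The labels do not state that replicates are different animals; the p-values therefore reflect only how these samples vary, and part of that may be technical.

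Total counts ran from 16256081 to 24766502 per library. In whole-tissue RNA, fewer cells of a type and less RNA per cell cannot be told apart. Markers of neutrophils (summed at 23567 to 43374 CPM, the TMM-normalised count scaled to library size, over the 9 libraries), erythroid cells and bone were high. Globin genes took 15.1 to 15.9% of counts in Ti+I-OG libraries, 6.68 to 9.98% in Ti libraries and 2.95 to 9.47% in naive libraries. Tibiae of the Ti group also carried 6 of 7 bone markers and 4 of 7 fibroblast and tendon markers higher than naive tibiae, and Ti+I-OG tibiae 1 of 7 and 4 of 7.

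Of the 76 genes, 45 had enough counts to be tested, among them 33 receptor genes and 11 ligand genes. Of these 45, 7 passed the test in at least 1 comparison, and all 7 encode receptor chains. Over all genes, 6.43% passed in Ti against naive, 8.26% in Ti+I-OG against naive and 0.0422% in Ti+I-OG against Ti. The share of all genes passing in at least 1 comparison was not computed, so the count of 7 has no matching background. The promoter windows of 4 of the 7, those with a single RefSeq start among the genes that fell, are shown as context for the results. Each holds the 250 bases before the RefSeq start on build GRCm38.p6, all on the plus strand: Il1rap at chr16:26581455-26581704, Il4ra at chr7:125552021-125552270, Il1rl2 at chr1:40324339-40324588 and Il18rap at chr1:40515112-40515361. Capitals mark matches to 6 motifs searched on both strands, where N is any base. These are TTC and GAA with any 4 bases between them (STAT6), TTCNNNGAA (other STATs), TGANTCA (AP-1), GAGGAA (PU.1), TTNNGNAAT (C/EBP) and ATGNAAAT. The last takes in the octamer ATGCAAAT and its variants at the base N.
Il1rap: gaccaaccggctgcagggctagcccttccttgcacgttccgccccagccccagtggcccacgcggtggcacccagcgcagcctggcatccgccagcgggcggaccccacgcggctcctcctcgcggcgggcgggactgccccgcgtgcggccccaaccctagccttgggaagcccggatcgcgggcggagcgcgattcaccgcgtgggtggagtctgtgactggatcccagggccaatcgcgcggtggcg
Il4ra: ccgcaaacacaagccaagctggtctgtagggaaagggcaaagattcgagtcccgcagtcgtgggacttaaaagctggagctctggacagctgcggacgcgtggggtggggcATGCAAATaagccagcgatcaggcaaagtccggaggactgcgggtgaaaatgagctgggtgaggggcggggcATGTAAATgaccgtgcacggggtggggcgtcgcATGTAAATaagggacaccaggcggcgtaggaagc
Il1rl2: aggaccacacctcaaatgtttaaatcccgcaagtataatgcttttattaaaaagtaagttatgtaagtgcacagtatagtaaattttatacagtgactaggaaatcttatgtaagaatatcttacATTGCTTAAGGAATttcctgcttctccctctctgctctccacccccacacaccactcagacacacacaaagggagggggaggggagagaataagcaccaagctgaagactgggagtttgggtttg
Il18rap: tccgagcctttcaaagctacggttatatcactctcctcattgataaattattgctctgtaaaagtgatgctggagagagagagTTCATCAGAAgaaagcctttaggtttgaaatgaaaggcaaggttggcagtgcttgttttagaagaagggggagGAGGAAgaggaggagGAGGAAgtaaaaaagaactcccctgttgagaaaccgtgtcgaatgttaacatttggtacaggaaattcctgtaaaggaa

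The Il1rap window held none of the 6 motifs. The Il4ra window matched ATGNAAAT 3 times, beginning 139, 67 and 34 bases before the start. The match at 139 was the octamer itself, ATGCAAAT, the site of POU factors, and those at 67 and 34 read ATGTAAAT. That motif was added after the letters had been seen. Of 32851 RefSeq promoters of the same length, 12 (0.0365%) hold 3 or more matches to it, against 5.03% that hold at least 1. Since the motif was chosen with this window known, that share does not measure how unusual the window is. The Il1rl2 window held a pair of C/EBP matches that overlap each other, at 125 to 117 and 120 to 112 bases before the start. Il18rap had a STAT6 match at 167 to 158 bases and GAGGAA at 94 to 89 and at 79 to 74 bases. Of all promoters, 5.85% hold the STAT6 motif, 7.02% the STAT motif, 6.75% AP-1, 23.3% GAGGAA and 10.2% the C/EBP motif. Matches are a description of letters and not of binding. RefSeq had a promoter for 55 of the 76 genes.

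Receptor chain genes were 24 of the 34 genes at 1 FPKM or more, and most ligand genes had few or no counts. On the per-length scale of FPKM (fragments per kilobase, scaled to depth), 34 genes averaged at least 1 FPKM over the 9 libraries and 12 at least 10 FPKM, and 9 of these 12 encode receptor chains. Of the 39 receptor genes 33 had enough counts to be tested, against 11 of the 36 ligand genes. No count in any library was found for 15 genes, 14 of them ligands: Il3, Il9, Il17a, Il17c, Il20, Il22, Il22b, Il24, Il25, Il31, Il36a, Il36b, Il36rn and Il1f10, besides the receptor Il1rapl2. A count of 0 allows up to 3 counts, which is 0.121 to 0.185 CPM of a library's total count. Another 16 genes had counts too few to test: the ligands Il2, Il5, Il10, Il11, Il12b, Il13, Il17b, Il17f, Il19, Il21 and Il23a and the receptor genes Il11ra2, Il17re, Il22ra1, Il23r and Il1rapl1.

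The highest mean level was that of Il16, whose product draws CD4+ cells, with 45.3 FPKM (37.3 to 50.9 over libraries). Il10rb, a chain shared by the receptors of IL-10 and IL-22, followed at a mean of 38.0 FPKM (31.6 to 44.7) and Il36g, the IL-36 gamma ligand, at 35.1 FPKM (23.2 to 45.5). Il36g lay below Il16 in every library, while Il10rb lay above Il16 in Ti replicate 2 and below Il36g in naive replicate 1. Mean levels were 26.0 FPKM for Il18rap, 22.4 for Il2rg and 19.5 for Il6st. Between 15.7 and 10.9 FPKM lay, in this order, Il4ra, Il17ra, Il13ra1, Il11ra1, Il18 and Il10ra. Keratinocyte markers summed to at most 1.47 CPM in any library, so Il36g was not accompanied by those markers here. Reads of Il16 and Stard5, of Il10rb and Gm21970, and of Il2rg and Gm20489 cannot be fully told apart, since their exons overlap in GENCODE M21 and the library kit does not mark strand. Of the 76 genes, 11 overlap another deposited gene in this way.

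**Figure D1:**
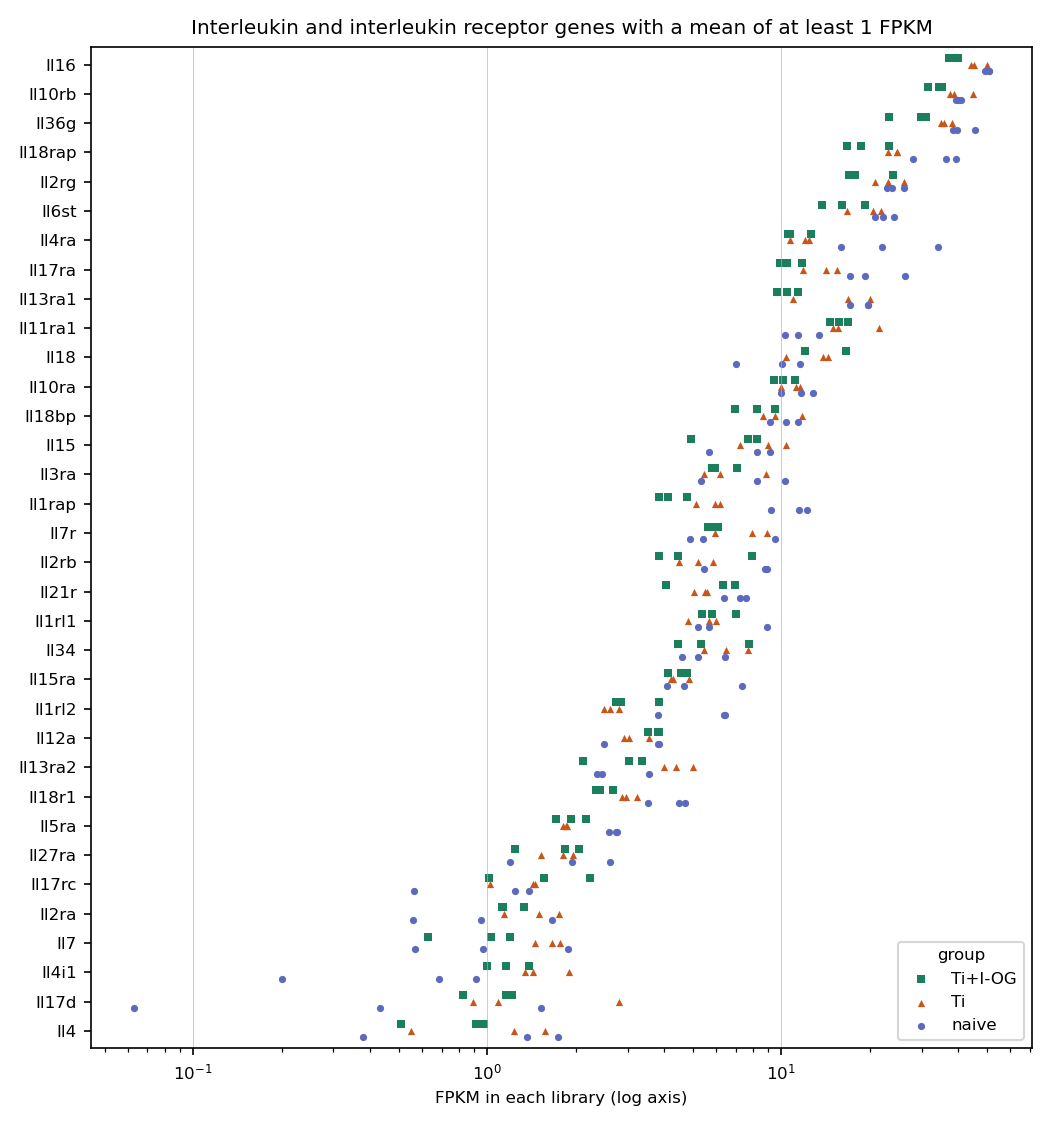
FPKM of the genes with a mean of at least 1 FPKM (rows, highest first), on a log axis, with 1 point per library for Ti+I-OG, Ti and naive tibiae. The ranges of Il16, Il10rb and Il36g overlap at the top, and for most genes the 3 groups overlap.

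Relative to naive tibiae, Ti tibiae had lower transcript levels of 3 receptor chains, Il1rap, Il1rl2 and Il4ra, and no tested member was higher. These are 3 of 45 tested genes (6.67%), against 6.43% of all 14211 genes called in either direction, 2.39% called lower and 4.05% called higher. Calls are edgeR quasi-likelihood tests with Benjamini-Hochberg adjustment over all 14211 genes, at an adjusted p under 0.05. Ti and naive libraries were fully separated for 11 of the 45 downward (24.4%, all genes 12.9%) and 4 upward (8.89%, all genes 14.3%). At an unadjusted p under 0.05 there were 14 of 45 (31.1%), against 26.9% of all genes. The median log2 fold change was -0.04 over the 45 and 0.01 over all genes. The count of 3 became 8 without naive replicate 2, 5 without Ti replicate 3, and 1 without Ti replicate 1 or 2.

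Ti+I-OG tibiae had 5 receptor chains lower than naive tibiae (Il1rap, Il4ra, Il17ra, Il18r1 and Il18rap) and 1 higher, Il11ra1. That is 6 of 45 (13.3%), against 8.26% of all genes; by direction, 4.43% of all genes were called lower and 3.84% higher. Groups did not overlap for 10 genes downward (22.2%, all genes 16.9%) and 4 upward (8.89%, all genes 18.7%), and the median log2 fold change was -0.09, against 0.03 over all genes. At an unadjusted p under 0.05 there were 14 of 45 (31.1%), against 29.8% of all genes. With the replicate number as a block, 12 genes passed, 3 of them higher and 9 lower. Same-numbered libraries of these 2 groups correlated at 0.11 to 0.27 and differently numbered ones at -0.22 to 0.05. The labels do not state that a number pairs libraries. The block was fitted over all 9 libraries. It therefore also rests on the Ti libraries. Same-numbered Ti and naive libraries correlated at -0.02 to 0.33 and differently numbered ones at -0.35 to 0.08, so those of replicate 1, at -0.02, did not stand out. Without naive replicates 1 and 3 in turn 2 and 1 passed. Without Ti+I-OG replicates 1, 2 and 3 in turn 1, 1 and 2 passed, and 3 passed without Ti replicate 1. The comparisons with naive tibiae share the 3 naive libraries.

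Between Ti+I-OG and Ti tibiae no interleukin or receptor gene passed, in edgeR or in DESeq2, limma-voom or limma-trend. Over all genes 0.0422% passed. At an unadjusted p under 0.05 there were 2 of 45, Il13ra1 and Il13ra2, against 7.84% of all genes. Ti+I-OG and Ti libraries were fully separated for 3 genes upward (6.67%, all genes 7.75%) and 3 downward (6.67%, all genes 6.71%). Summed over the 76 genes, levels were 962 to 1013 CPM in Ti+I-OG, 1052 to 1114 CPM in Ti and 1191 to 1310.3 CPM in naive libraries, and the 3 ranges did not overlap. Il16, Il18rap, Il6st and Il17ra made up 46.0% of the sum.

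**Figure D2:**
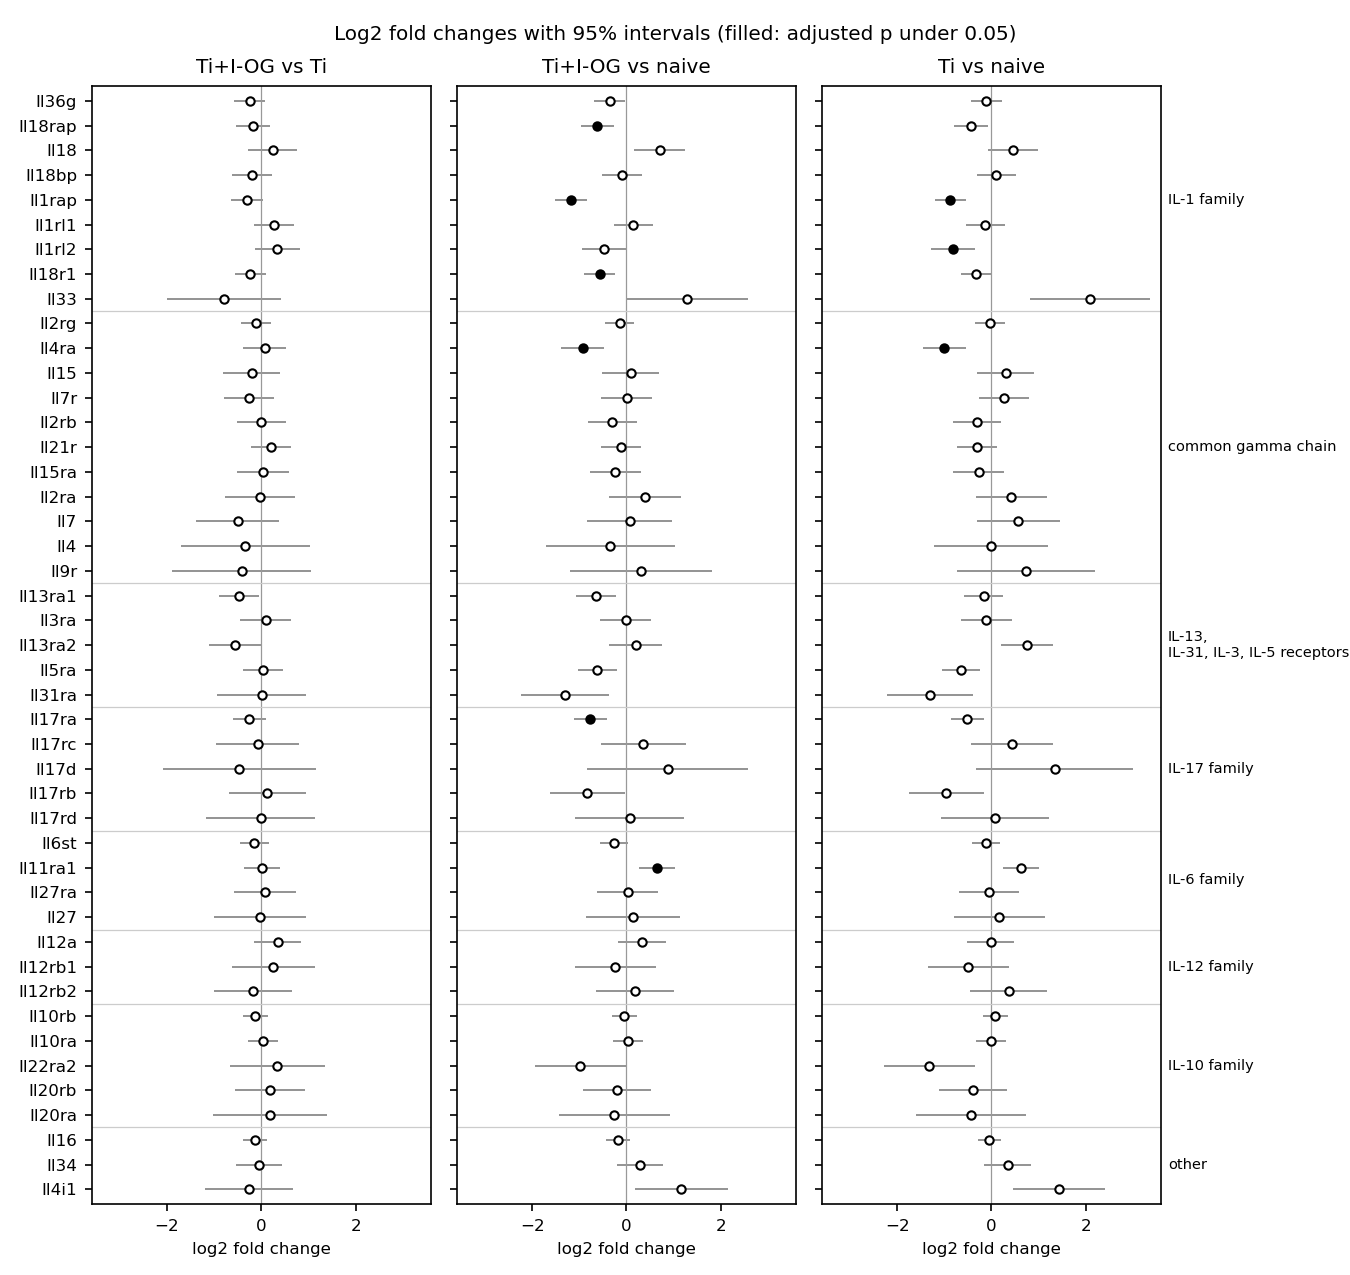
Log2 fold changes with 95% intervals of the 45 genes tested, by receptor family (rows) and comparison (panels), with filled points for an adjusted p under 0.05. Il1rap and Il4ra are filled in both comparisons with naive tibiae, and no point is filled between Ti+I-OG and Ti tibiae.

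In the IL-1 family, the shared accessory chain fell in both particle-treated groups. Il1rap, which pairs with the specific receptors of IL-1, IL-33 and IL-36, had 22.8, 18.1 and 18.5 CPM in Ti+I-OG libraries 1 to 3, 26.0, 25.6 and 21.8 CPM in Ti libraries and 47.4, 38.2 and 48.3 CPM in naive libraries. Every library that received particles lay below every naive library. The log2 fold change was -0.87 (SE 0.151, adjusted p 0.0122) for Ti against naive and -1.17 (SE 0.153, adjusted p 0.00414) for Ti+I-OG against naive. Both calls held when each of the 9 libraries was left out in turn and under the 8 other alternatives. Ti+I-OG and Ti overlapped, at -0.30 (95% interval -0.64 to 0.03, adjusted p 0.651). Il1rap exons overlap the antisense gene Gm20319, which has no row in the deposited table used here.

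Il1rl2, the specific receptor of IL-36, had 14.7, 10.4 and 10.7 CPM in Ti+I-OG libraries, 9.91, 9.24 and 9.11 CPM in Ti libraries and 17.8, 11.7 and 20.1 CPM in naive libraries. Ti libraries lay below those of both other groups, while Ti+I-OG and naive libraries overlapped. The fall in Ti against naive was -0.81 on the log2 scale (SE 0.217, adjusted p 0.0482) and was called in 1 of the 9 fits that left out a library. Ti+I-OG against naive gave -0.47 (adjusted p 0.171) and Ti+I-OG against Ti 0.34 (95% interval -0.14 to 0.82, adjusted p 0.691). Of its ligands, Il36a and Il36b had no count. Il36g had 55.6, 55.1 and 39.1 CPM in Ti+I-OG, 61.9, 58.4 and 56.8 CPM in Ti and 70.5, 62.7 and 57.9 CPM in naive libraries. Ti+I-OG libraries were the lowest and the other groups overlapped. Its log2 fold change was -0.35 (SE 0.15, adjusted p 0.143) for Ti+I-OG against naive, which did not pass. With the replicate block the adjusted p was 0.0399. With limma-trend on log2 FPKM it was 0.0299 and 0.0304, at -0.56 and -0.55 (pseudocounts 0.1 and 1). On these scales the median of all genes was -0.16 and -0.12, a shift that these fits do not remove.

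Neither Il33 nor its receptor gene passed in the main edgeR fit, which covers all 9 libraries with low counts filtered and no block. Il33, a ligand released by damaged stromal cells, had 2.33, 2.47 and 0.850 CPM in Ti+I-OG, 2.79, 5.53 and 1.42 CPM in Ti and 0.759, 1.17 and 0.377 CPM in naive libraries. All Ti libraries lay above all naive ones, with Ti replicate 2 the highest. The log2 fold change of Ti against naive was 2.09 (SE 0.581, adjusted p 0.0542) in the main edgeR fit. It passed with DESeq2 (adjusted p 0.00706) and in edgeR with no filter on low counts (0.0372). It missed with limma-voom (0.0829), other size factors (0.0558) and in the fit of only these groups (0.0782). With limma-trend it was 1.39 on the log2(FPKM + 0.1) scale (0.0997) and 0.68 on the log2(FPKM + 1) scale (0.103), neither passing. For Ti+I-OG against naive it was 1.29 (adjusted p 0.169), and it passed with the replicate block (1.31, adjusted p 0.0213), while limma-trend gave 0.64 and 0.27 on these FPKM scales (0.339 and 0.413). Fibroblast and tendon markers summed to 369 to 725 CPM in Ti+I-OG, 509 to 995 CPM in Ti and 158 to 194 CPM in naive libraries, with none of the 7 at 0, and their part in the Il33 values was not tested. Il1rl1, the receptor of IL-33 (ST2), had 27.9, 27.0 and 28.1 CPM in Ti+I-OG, 24.4, 22.9 and 21.2 CPM in Ti and 22.02, 33.9 and 19.1 CPM in naive libraries. Its log2 fold change was 0.28 for Ti+I-OG against Ti, 0.15 for Ti+I-OG against naive and -0.13 for Ti against naive, and none passed.

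Both chains of the IL-18 receptor were lower in Ti+I-OG than in naive tibiae. Il18r1, the chain that binds IL-18, had 9.27, 10.2 and 9.41 CPM in Ti+I-OG, 11.1, 10.9 and 11.9 CPM in Ti and 15.1, 13.3 and 14.5 CPM in naive libraries. The 3 groups did not overlap, with naive libraries highest and Ti+I-OG libraries lowest. Ti+I-OG against naive gave -0.57 (SE 0.148, adjusted p 0.0413); Ti against naive, at -0.34, did not pass (adjusted p 0.165). Il18rap, the accessory chain, had 123, 102 and 83.5 CPM in Ti+I-OG, 119.7, 119.6 and 111 CPM in Ti and 180.3, 132 and 162 CPM in naive libraries. All particle-treated libraries lay below all naive ones, and Ti+I-OG replicate 1 lay above every Ti library. Ti+I-OG against naive gave -0.62 (SE 0.163, adjusted p 0.0432) and Ti against naive -0.43 (adjusted p 0.121). Each of the 2 calls held in 3 of the 9 fits that left out a library.

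The ligand Il18 and the soluble inhibitor Il18bp were not called in any comparison without the replicate block. Il18 had 15.7, 11.6 and 10.7 CPM in Ti+I-OG, 12.1, 11.7 and 8.33 CPM in Ti and 8.16, 9.62 and 5.53 CPM in naive libraries. Its log2 fold change in Ti+I-OG against naive was 0.70 (SE 0.244, adjusted p 0.0837), with all Ti+I-OG libraries above all naive ones, and with the replicate block it passed at 0.72 (adjusted p 0.015). Il18bp, the secreted protein that binds IL-18, had log2 fold changes of -0.09 for Ti+I-OG against naive and 0.11 for Ti against naive, with 14.9, 12.7 and 9.97 CPM in Ti+I-OG, 12.3, 14.2 and 16.7 CPM in Ti and 13.02, 11.96 and 15.0 CPM in naive libraries. In RefSeq's gene order on chromosome 1, Il1rl2, Il1rl1, Il18r1 and Il18rap lie next to each other. Of these 4, Il1rl1 had no call in any comparison.

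**Figure D3:**
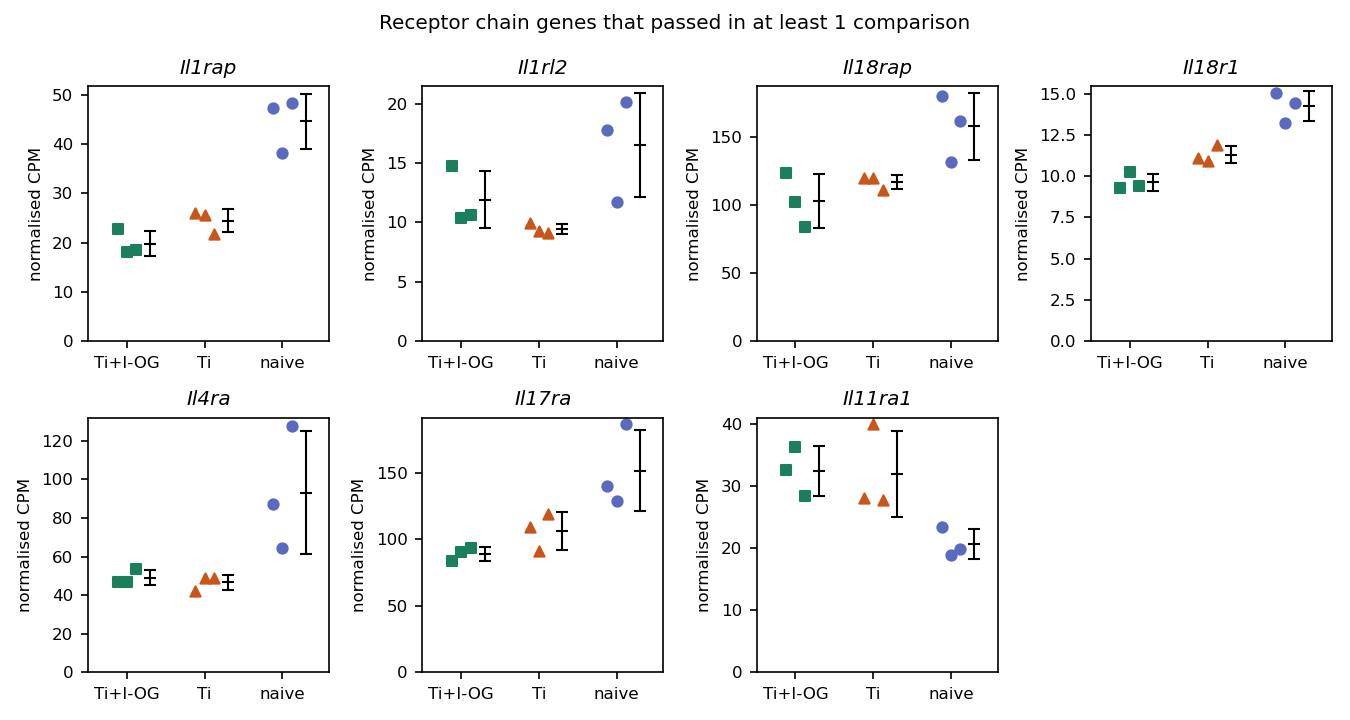
Normalised CPM of the 7 called receptor genes in each Ti+I-OG, Ti and naive library, with points for libraries and, beside them, the mean and SD of each group (n = 3). Il1rap and Il4ra libraries with particles lie below all naive libraries, Il11ra1 libraries with particles lie above them, and naive replicate 3 is the highest library for Il4ra and Il17ra.

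Of the IL-4 and IL-13 receptor chains, Il4ra was called lower in both comparisons with naive tibiae. Il13ra1 and Il13ra2 missed the threshold in the main edgeR fit. Il4ra, which binds IL-4 and pairs with Il2rg or Il13ra1, had 46.6, 46.9 and 53.5 CPM in Ti+I-OG, 42.2, 48.7 and 49.1 CPM in Ti and 87.0, 64.6 and 127.7 CPM in naive libraries. The particle-treated groups overlapped each other and lay below all naive libraries, of which replicate 3 was the highest. The log2 fold change was -0.996 (SE 0.206, adjusted p 0.0224) for Ti against naive and -0.93 (SE 0.206, adjusted p 0.0287) for Ti+I-OG against naive. Ti+I-OG against Ti gave 0.07 (95% interval -0.38 to 0.52). Leaving out Ti replicate 1 or 2 ended the Ti call (largest adjusted p 0.0959), and the Ti+I-OG call held in 4 of the 9 fits that left out a library. Il4ra exons overlap the antisense gene Gm44876.

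Il13ra1, the chain that binds IL-13 beside Il4ra, had 42.4, 47.1 and 36.7 CPM in Ti+I-OG, 61.8, 73.6 and 40.1 CPM in Ti and 68.8, 61.5 and 66.7 CPM in naive libraries. Ti+I-OG libraries lay below all naive ones, and Ti replicate 3 stood with the Ti+I-OG libraries. Ti+I-OG against naive gave -0.64 (SE 0.194, adjusted p 0.0602) and Ti+I-OG against Ti -0.48 (95% interval -0.90 to -0.05, adjusted p 0.63). The comparison with naive passed under 6 of the 8 alternatives that keep all replicates. Among them were the replicate block (adjusted p 0.014), DESeq2 (0.02) and limma-trend on FPKM, where the median of all genes was also lower (-0.16 and -0.12). The comparison missed with limma-voom (0.0674) and other size factors (0.057). Il13ra2, a decoy receptor for IL-13, had 5.65, 5.22 and 3.34 CPM in Ti+I-OG, 6.99, 7.84 and 6.17 CPM in Ti and 5.13, 3.74 and 3.52 CPM in naive libraries. Its Ti libraries lay above those of both other groups. It gave 0.76 (adjusted p 0.0864) for Ti against naive and -0.56 (95% interval -1.11 to -0.01, adjusted p 0.63) for Ti+I-OG against Ti. Neither passed in the main edgeR fit.

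Il2rg, the common gamma chain, had 30.6, 31.5 and 39.3 CPM in Ti+I-OG, 35.1, 32.7 and 41.8 CPM in Ti and 36.9, 36.8 and 38.2 CPM in naive libraries, and its groups overlapped. Of the 8 receptor chains of the common gamma family, all were tested and 1, Il4ra, was called. The ligand Il4 had 0.645, 0.343 and 0.567 CPM in Ti+I-OG, 0.944, 0.330 and 0.735 CPM in Ti and 0.987, 0.794 and 0.209 CPM in naive libraries, and Il13 had 1 count in the series, in Ti+I-OG replicate 3. Among 16 tested genes that IL-4 and IL-13 are known to induce in macrophages, 3 rose in Ti against naive and none fell. These were Cd209a (log2 1.00), Pparg (0.80) and Retnla (2.10). Cd209a (1.61) and Retnla (2.30) also passed in Ti+I-OG against naive. The list's median log2 fold change was 0.16 for Ti against naive and 0.30 for Ti+I-OG against naive, against 0.01 and 0.03 over all genes. Over all genes, 3.84% were called higher in Ti+I-OG and 4.05% in Ti, each against naive. Macrophage markers summed to 436 to 451 CPM in Ti+I-OG, 427 to 461 CPM in Ti and 341 to 377 CPM in naive libraries, and none of the 6 was at 0. Of these 6, Cd68 rose in Ti+I-OG, and Cd68 and Lyve1 rose and Cd163 fell in Ti, each against naive. Mrc1 stands in both lists. Adipocyte markers, from cells that also express Pparg, summed to 181 to 598 CPM in Ti+I-OG, 227 to 491 CPM in Ti and 59.1 to 190 CPM in naive libraries, none of the 5 at 0. Of these, 2 passed as higher in Ti+I-OG and 0 in Ti, with median log2 fold changes of 2.04 and 1.98. The part of these cells in the list was not tested.

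The other common gamma chain members that could be tested had no call, while Il2, Il9 and Il21 had too few counts or none. Il7r, the IL-7 receptor of lymphoid precursors, had 22.2, 22.2 and 22.1 CPM in Ti+I-OG, 31.3, 27.8 and 20.8 CPM in Ti and 16.3, 32.5 and 17.6 CPM in naive libraries. Its groups overlapped, and the naive libraries spanned the widest range. Il2ra, Il9r, Il15ra and Il21r are the specific chains for IL-2, IL-9, IL-15 and IL-21, and Il2rb is shared by the IL-2 and IL-15 receptors. These chains had log2 fold changes of -0.42 (Il9r) to 0.20 (Il21r) in Ti+I-OG against Ti and -0.31 (Il21r) to 0.73 (Il9r) in Ti against naive. The ligand Il15, which sustains NK cells, gave -0.21 in Ti+I-OG against Ti (95% interval -0.81 to 0.40), and Il7, which stromal cells make for lymphoid precursors, -0.50 (95% interval -1.39 to 0.39).

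Il17ra, the chain shared by the receptors of IL-17A, IL-17F, IL-17C and IL-25, had 83.3, 90.6 and 93.1 CPM in Ti+I-OG, 108.9, 91.1 and 119 CPM in Ti and 139.8, 128 and 186 CPM in naive libraries. Libraries with particles lay below all naive libraries, and naive replicate 3 was the highest. Ti+I-OG against naive gave -0.77 (SE 0.16, adjusted p 0.0247), called in 6 of the 9 fits that left out a library. Ti against naive gave -0.51 (SE 0.159, adjusted p 0.074) and Ti+I-OG against Ti -0.26 (95% interval -0.60 to 0.09). Il17a, Il17c and Il25 had no count. Il17f had 0, 0 and 0 counts in Ti+I-OG, 3, 4 and 0 counts in Ti and 0, 3 and 2 counts in naive libraries.

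The partner chains were low. Il17rb, which binds IL-25, had 1.79, 2.20 and 0.963 CPM in Ti+I-OG, 1.18, 1.65 and 1.67 CPM in Ti and 3.34, 2.10 and 3.27 CPM in naive libraries, and gave -0.95 for Ti against naive (adjusted p 0.124). Il17rc, the partner of Il17ra for IL-17A, had 2.28, 1.99 and 1.98 CPM in Ti+I-OG, 1.89, 2.93 and 1.76 CPM in Ti and 1.48, 2.57 and 0.838 CPM in naive libraries, with overlapping groups. Il17re, which binds IL-17C, had 2, 1 and 8 counts in Ti+I-OG, 2, 24 and 6 counts in Ti and 1, 5 and 11 counts in naive libraries. Among 12 tested genes induced by IL-17A, Mmp3 (log2 3.37) and Mmp13 (1.27), both matrix-degrading enzymes, rose in Ti against naive, and Mmp3 (3.46) in Ti+I-OG against naive. None of the 12 fell. Against these counts, 4.05% of all genes were called higher and 2.39% lower in Ti, and 3.84% higher and 4.43% lower in Ti+I-OG. Bone markers summed to 3711 to 5813 CPM in Ti+I-OG, 5794 to 8480.0 CPM in Ti and 1397 to 3283 CPM in naive libraries, and 1 of 7 in Ti+I-OG and 6 of 7 in Ti were higher than in naive tibiae. Fibroblast and tendon markers, given beside Il33, were higher for 4 of 7 in both. Their part in the Mmp3 and Mmp13 values was not tested. Of 16 adaptors of IL-1 and IL-17 receptors, none passed in Ti against naive, and Irak4 (log2 -0.67) and Traf6 (-0.58) fell in Ti+I-OG against naive.

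Il11ra1, the specific receptor of IL-11, was the member called higher. It had 32.5, 36.3 and 28.4 CPM in Ti+I-OG, 28.0, 39.9 and 27.8 CPM in Ti and 23.4, 18.8 and 19.9 CPM in naive libraries. All libraries with particles lay above all naive libraries. Ti+I-OG against naive gave 0.65 (SE 0.175, adjusted p 0.046), called in 2 of the 9 fits that left out a library, and Ti against naive 0.63 (SE 0.174, adjusted p 0.0543). The gene has a near-identical copy, Il11ra2, so its counts are uncertain. Its shared chain Il6st had 110.3, 97.0 and 129 CPM in Ti+I-OG, 130.5, 132 and 109.9 CPM in Ti and 125, 135 and 142 CPM in naive libraries, and none of its comparisons passed. Il11 had 0, 3 and 0 counts in Ti+I-OG, 0, 6 and 0 counts in Ti and 2, 3 and 0 counts in naive libraries.

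The IL-10 receptor chains Il10ra and Il10rb had log2 fold changes of 0.03 and -0.13 in Ti+I-OG against Ti, and neither passed in any comparison. Il10ra, the chain specific to IL-10, had 35.997, 43.6 and 36.2 CPM in Ti+I-OG, 34.4, 40.0 and 38.6 CPM in Ti and 38.1, 43.1 and 31.7 CPM in naive libraries. Il10rb had 69.4, 73.1 and 60.1 CPM in Ti+I-OG, 71.0, 81.9 and 68.3 CPM in Ti and 71.0, 70.8 and 66.8 CPM in naive libraries. Groups overlapped for both. Il16 had 129.7, 141 and 130.5 CPM in Ti+I-OG, 142, 139.9 and 158 CPM in Ti and 152, 152 and 149 CPM in naive libraries. Its Ti+I-OG libraries lay below all naive ones without passing in the main edgeR fit (-0.18, adjusted p 0.315). Il16 passed with limma-trend on FPKM, where the median of all genes was also lower (-0.16 and -0.12). Il5ra and Il31ra, receptor chains for IL-5 and IL-31, had log2 fold changes in Ti+I-OG against naive of -0.61 (adjusted p 0.063) and -1.30 (0.0711). In Ti against naive they had -0.65 (0.0612) and -1.31 (0.079). None of these passed in the main edgeR fit, which has no block. With the replicate block, Il5ra and Il31ra passed as lower in Ti+I-OG against naive, and with DESeq2 in both comparisons.

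Members of the IL-12 and IL-27 families were low and none was called. Il12a, the p35 subunit of IL-12, had 5.55, 5.22 and 5.27 CPM in Ti+I-OG, 3.87, 4.70 and 4.02 CPM in Ti and 3.15, 4.95 and 4.65 CPM in naive libraries. Ti+I-OG libraries lay above those of both other groups, at a log2 fold change of 0.35 against Ti (95% interval -0.15 to 0.85, adjusted p 0.696). Il12rb1, Il12rb2, Il27 and Il27ra had log2 fold changes of -0.18 (Il12rb2) to 0.26 (Il12rb1) in Ti+I-OG against Ti and -0.49 (Il12rb1) to 0.36 (Il12rb2) in Ti against naive. Il34, which is also a ligand of the macrophage growth factor receptor, had 9.97, 8.52 and 13.7 CPM in Ti+I-OG, 9.35, 11.1 and 13.03 CPM in Ti and 8.43, 10.7 and 7.21 CPM in naive libraries, and its groups overlapped.

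Of the remaining genes, Il22ra2, which encodes a soluble binding protein for IL-22, had 1.49, 1.65 and 0.680 CPM in Ti+I-OG, 0.944, 1.11 and 0.931 CPM in Ti and 2.70, 1.31 and 3.48 CPM in naive libraries. All Ti libraries lay below all naive ones, at -1.32 (SE 0.441, adjusted p 0.0901), without passing. Il22 itself had no count. Il20ra, Il20rb, Il3ra, Il17d and Il17rd had overlapping groups in all comparisons.

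Eosinophil markers, which include Siglecf and Epx, summed to 2676 to 3695 CPM in Ti+I-OG, 1889 to 2438 CPM in Ti and 2620.0 to 3800.3 CPM in naive libraries; 2 of 7 (Epx and Siglecf) were lower in Ti and 1 of 7 (Siglecf) in Ti+I-OG than in naive tibiae. The related gene Csf2rb encodes a chain shared by the IL-3, IL-5 and GM-CSF receptors, and Csf2rb2 a chain of the IL-3 receptor. Both were called lower in Ti against naive, at -1.35 (SE 0.229, adjusted p 0.0115) and -1.24 (SE 0.272, adjusted p 0.0253). They are near-identical copies, so their counts are uncertain. Against naive, Ti+I-OG gave -1.29 and -1.17. Of 23 tested related cytokines and receptors without an Il symbol, 2 rose (Ptprz1 and Sdc1) and 2 fell in Ti, and 2 rose and 3 fell in Ti+I-OG, Csf3r (-0.61) being the third. Beside these counts and those of the eosinophil markers, 4.05% of all genes were called higher and 2.39% lower in Ti. In Ti+I-OG these shares were 3.84% and 4.43%.

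Of the 25 JAK, STAT and SOCS genes that carry most interleukin signals inside the cell, 1 rose and 2 fell in Ti against naive. Socs2, a feedback inhibitor, gave 1.15 (SE 0.277, adjusted p 0.0351). Jak3, the kinase that binds Il2rg, gave -1.20 (SE 0.262, adjusted p 0.0245) and Socs3, the inhibitor of gp130 signalling, -1.003 (SE 0.227, adjusted p 0.0274). In Ti+I-OG against naive Socs2 gave 1.11, Socs3 -0.84 and Stat3 -0.70, all called. Over all genes, 4.05% were called higher and 2.39% lower in Ti, and 3.84% higher and 4.43% lower in Ti+I-OG, each against naive. Neutrophil markers summed to 23567 to 35037 CPM in Ti+I-OG, 27513 to 37349 CPM in Ti and 32227 to 43374 CPM in naive libraries, and 1 of 7, Cxcr2, was lower, at -0.96 in Ti+I-OG against naive (adjusted p 0.00732) and -0.54 in Ti against naive (0.0447). None of the 7 was at 0. Their median log2 fold change was -0.64 in Ti+I-OG and -0.31 in Ti, each against naive (0.03 and 0.01 over all genes). T and NK markers summed to 107 to 118 CPM in Ti+I-OG, 104 to 119 CPM in Ti and 128 to 149 CPM in naive libraries, and 0 of 10 passed. Nkg7 made up the largest part of each sum. It had 44.7 to 49.9 CPM in Ti+I-OG, 35.6 to 59.5 CPM in Ti and 59.8 to 86.1 CPM in naive libraries. The median log2 fold change of the 10 was 0.10 in Ti+I-OG and -0.002 in Ti, each against naive. The part of these cell types in the lower receptor transcripts was not tested.

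**Figure D4:**
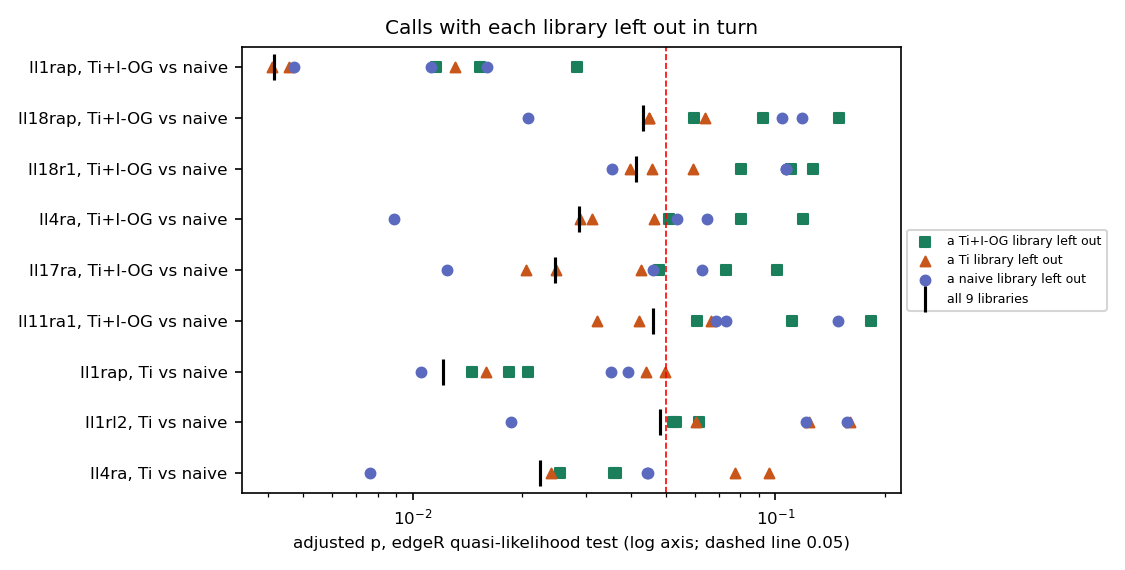
Adjusted p of each called gene and comparison with each library left out in turn, on a log axis, with points by the group of the library left out and a vertical tick for all 9 libraries. Il1rap lies under 0.05 in all fits of both comparisons; the other calls cross it in at least 1.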

How the data were processed

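The labels' protocols describe total RNA of mouse tibiae, enriched with oligo(dT) beads and made into libraries with a kit that does not mark strand. Per the submitters' processing notes, RSEM, StringTie 1.3.1, edgeR, DESeq2 and fastp were used, in roles not listed. The sources used here do not name an aligner, genome build or annotation. Each of 22183 genes has, per library, an estimated count and an FPKM, both deposited by the authors. Estimated counts were rounded to whole numbers, and FPKM served to compare levels between genes.

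Groups came from the sample titles. A single edgeR 4.0.16 quasi-likelihood fit (R 4.3.3) of all 9 libraries, with TMM normalisation, filterByExpr (14211 genes kept) and 6 residual degrees of freedom, gave the 3 contrasts; p-values were adjusted by Benjamini-Hochberg over all genes and called under 0.05. The step was tested on simulated data. Alternatives were DESeq2 1.42.0, limma 3.58.1 (voom, and trend on log2 FPKM), other size factors, no filter, only 2 groups, a replicate block and each library left out. Deviations of same-numbered libraries correlated at 0.20, 0.11 and 0.27 between Ti+I-OG and naive, 0.07 to 0.22 between Ti+I-OG and Ti, and -0.02 to 0.33 between Ti and naive.

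Genes named with values in every library are those called in any contrast, the 12 with the highest mean FPKM, the 4 with the smallest p in each contrast, and the ligands and partner chains of called genes. The members, lists and rules were chosen with earlier results of these data known. Promoter letters came from RefSeq (GRCm38.p6) and overlaps from GENCODE M21. Floors and intervals of counts cover counting error only.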

Additional observations from a re-analysis of the deposited data

How the results depend on the processing

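Counts of called genes moved with the test and the libraries. For Ti against naive, 3 genes were called in the main edgeR fit, 10 with DESeq2 and 1 in the fit of only these groups. The replicate block gave 11, and fits that left out a library gave 1 to 8. For Ti+I-OG against naive, 6 were called; the replicate block gave 12, and fits that left out a library gave 1 to 8. For Ti+I-OG against Ti, 0 were called in every fit run, with and without the block. The replicate block of Ti against naive is given for its count only. Same-numbered libraries of replicate 1 correlated at -0.02 there. The cause of these moves was not tested. Il1rap held its calls in all of them. No value reversed its direction while called. On the FPKM scale the median of all genes moved to -0.16 for Ti+I-OG against naive (pseudocount 0.1), and fold changes there include that shift. Few counts limit what can be said of most ligands.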

Other observations

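Among the ligands too sparse to test, Il12b, the shared p40 subunit of IL-12 and IL-23, had 0, 0 and 0 counts in Ti+I-OG, 3, 6 and 2 counts in Ti and 0, 0 and 0 counts in naive libraries, and was chosen after its values were seen. Against a floor of 3 counts over the naive group, the 11 counts of Ti gave a ratio of 3.78. With the same floor, Ti+I-OG was at 0.316 of Ti. Both ratios take the count of Ti as exact, so they are not bounds, and neither difference was tested. Il23a, the other subunit of IL-23, had 1, 1 and 1 counts in Ti+I-OG, 2, 4 and 0 counts in Ti and 0 counts in naive libraries. Il10, an inhibitory cytokine, had 21, 1 and 1 counts in Ti+I-OG, 4, 15 and 9 counts in Ti and 4, 0 and 1 counts in naive libraries, so 21 of its 56 counts came from Ti+I-OG replicate 1. That library also held all 4 counts of Il21. The enzyme gene Il4i1 had 3.12, 2.27 and 2.49 CPM in Ti+I-OG, 2.74, 3.88 and 2.89 CPM in Ti and 1.33, 1.82 and 0.377 CPM in naive libraries; its log2 fold change of 1.43 in Ti against naive did not pass (adjusted p 0.074), and its exons overlap those of Nup62, Atf5 and Tbc1d17.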
